A study of Mus musculus with 49 samples.

Results

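The response of the neocortex to induced human TDP-43 lacking its nuclear localization signal was read from 27 of the 49 mice sequenced, namely the 10 bigenic rNLS8 mice that received PBS (TDP-PBS) and the 17 monogenic mice that received PBS (ctrl PBS). The groups were taken from the genotype and treatment labels of the samples, and no measured value entered the choice. TDP-PBS mice were heterozygous for NEFH-tTA, which carries the tetracycline transactivator under the promoter of the heavy neurofilament gene, and for tetO-hTDP43∆NLS, the transgene that the transactivator switches on once doxycycline is withdrawn. Ctrl PBS mice carried only the tetO-hTDP43∆NLS allele, so the presence of the NEFH-tTA allele itself and the induction of the transgene cannot be told apart in this comparison. The background was a mix of C57BL/6J and C3H/HeJ. All mice received PBS in place of peptide conjugate from 8 weeks of age on, 5 times before and 1 time after induction. In the paper's regimen for this line the conjugate was mixed with a CpG oligonucleotide and the adjuvant Alhydrogel. For the PBS groups the paper names only the conjugate as replaced. Doxycycline was withdrawn at 25.5 weeks and tissue was taken 3 weeks later, at 28.5 weeks. TDP-PBS comprised 4 females and 6 males, and ctrl PBS 10 females and 7 males. RNA from about 30 mg of neocortex per mouse was sequenced as 100 bp paired-end reads, with 1 library per mouse.

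TDP-43 is a nuclear RNA-binding protein that controls splicing and stability of many neuronal transcripts. In most cases of amyotrophic lateral sclerosis and in a large share of frontotemporal dementia it leaves the nucleus and aggregates in the cytoplasm, and the cytoplasmic transgene of rNLS8 mice models this in neurons. Microglia and astrocytes do not express heavy neurofilament, and they are known to react to injured neurons by changing shape, number and gene expression.

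Total counts were 19088734 to 20866314 per ctrl PBS mouse and 18346385 to 21033608 per TDP-PBS mouse. Levels are given as CPM, counts per 1000000 counts of a library total scaled by edgeR's TMM factors. A count of 3 corresponded to 0.143 to 0.165 CPM, and values near it carry little information. Mitochondrial ribosomal RNA made up 0.300 to 0.527% of the counts in ctrl PBS and 0.416 to 0.628% in TDP-PBS. Slc17a7, the vesicular glutamate transporter of cortical excitatory neurons, was abundant in every mouse and lay from 1472 to 2230.2 CPM (median 1849) in ctrl PBS and from 1421 to 2144 CPM (median 1945) in TDP-PBS. Omp, the olfactory marker protein, reached 16.9 CPM in ctrl PBS mouse 7 and 9.43 CPM in ctrl PBS mouse 14 and at most 1.34 CPM in the other ctrl PBS mice, while 0 TDP-PBS mice exceeded 5 CPM. Without these 2 mice the counts of members called differed by at most 2 in every gene list below. Each mouse is a separate animal.

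The first genes examined were those tied to the transgene. Tardbp, the mouse gene of TDP-43, lay from 119.6 to 160.4 CPM (median 147) in ctrl PBS and from 91.9 to 137 CPM (median 120.0) in TDP-PBS, a fall of 18.9%. Prnp, which encodes the prion protein (chromosome 2, 131909928 to 131938436 in GRCm38.p6), lay from 434 to 525 CPM (median 489) in ctrl PBS and from 824 to 1112 CPM (median 1029.9) in TDP-PBS, without overlap. It rose by 1.04 on the log2 scale (standard error 0.06), with a Benjamini-Hochberg adjusted p of 1.09e-19 in the quasi-likelihood test of edgeR. The sources used here do not say whether transgene-derived reads could be assigned to either gene. Nefh, whose promoter drives the transactivator, fell by 20.4%, with 2 of 10 TDP-PBS mice under the whole ctrl PBS range.

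The groups differed over a large part of the transcriptome, in both directions and mostly by small amounts. "Rose" and "fell" are used for genes that passed an adjusted p-value under 0.05. Of 18220 genes tested, 7928 (43.5%) passed an adjusted p-value under 0.05, of which 3996 (21.9% of those tested) were higher and 3932 (21.6%) lower in TDP-PBS. The median absolute log2 fold change of the changed genes was 0.33, and 2643 of them (33.3%) moved by no more than 0.25. The balance tipped with size. Over 1 log2 unit, 491 genes (2.69%) were changed, of which 349 (1.92% of those tested) were higher and 142 (0.779%) lower, and over 2 log2 units 75 were higher and 14 lower. The median over all genes tested was −0.0004. Scaling by library totals without TMM factors moved this median to 0.07 and the split to 5378 higher and 2786 lower of 8164, so the balance of small changes depends on the scaling. In bulk tissue a change in the number of cells of a type and a change in RNA per cell cannot be told apart. Leaving out each TDP-PBS mouse in turn gave 7568 to 7933 changed genes.

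**Figure D1:**
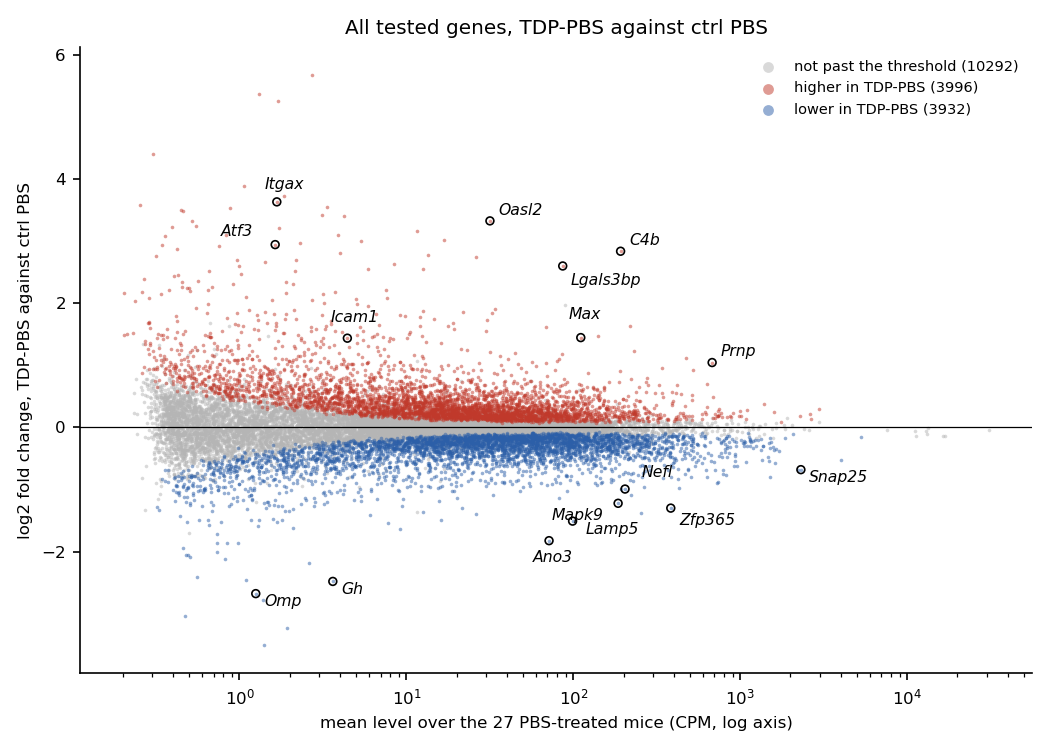
Each point is 1 of the 18220 tested genes, with its mean level over the 27 PBS-treated mice on a log axis (CPM) and its log2 fold change in TDP-PBS against ctrl PBS. Red points (3996) were higher and blue points (3932) lower at an adjusted p-value under 0.05, and grey points did not pass. Circled genes other than Lgals3bp are described in the text. Large increases extend further from 0 than large decreases.

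In 891 genes the 2 groups did not overlap, with every TDP-PBS mouse above every ctrl PBS mouse in 421 (2.31% of those tested) and below in 470 (2.58%). With CPM taken by library totals the numbers were 628 and 272. Max, the dimerization partner of the MYC transcription factors (chromosome 12, 76937269 to 76962323), lay from 58.6 to 79.5 CPM (median 67.3) in ctrl PBS and from 157 to 197 CPM (median 186) in TDP-PBS. It rose by 1.44 on the log2 scale (standard error 0.05) with an adjusted p of 1.02e-29 from edgeR, the smallest p-value among the genes that rose. Mapk9, which encodes the stress-activated kinase JNK2 (chromosome 11, 49846728 to 49886421), lay from 212 to 259 CPM (median 234) in ctrl PBS and from 86.6 to 114 CPM (median 99.8) in TDP-PBS. It fell by 57.1% (log2 fold change −1.22, standard error 0.04, adjusted p = 6.77e-28 from edgeR), the smallest p-value among the genes that fell. For both genes the gap between the groups was wider than the spread within either.

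Others with very small p-values also had tight groups. Zfp365, a zinc finger gene, fell from 492 ± 40.5 to 199.7 ± 21.6 CPM (SD, n = 17 and 10), and Camkk2, the kinase that activates calmodulin-dependent kinases, from 276 ± 23.1 to 129 ± 13.2 CPM. Tsnax, which encodes the partner of translin in RNA binding, fell by 47.3%, Rap1gds1, an exchange factor of small GTPases, by 41.5% and Sult4a1, a brain sulfotransferase, by 38.5%. Among those that rose, Zfas1, a noncoding host RNA of small nucleolar RNAs, went from 6.39 ± 0.804 to 21.8 ± 3.08 CPM, a 3.41-fold change. Pdrg1, a gene regulated by p53 and DNA damage, rose 3.21-fold, Zfp280b, a zinc finger gene, 2.33-fold, and Vat1, a vesicle membrane protein gene, 2.09-fold. In each of these 9 genes all 10 TDP-PBS mice lay outside the ctrl PBS range.

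**Figure D2:**
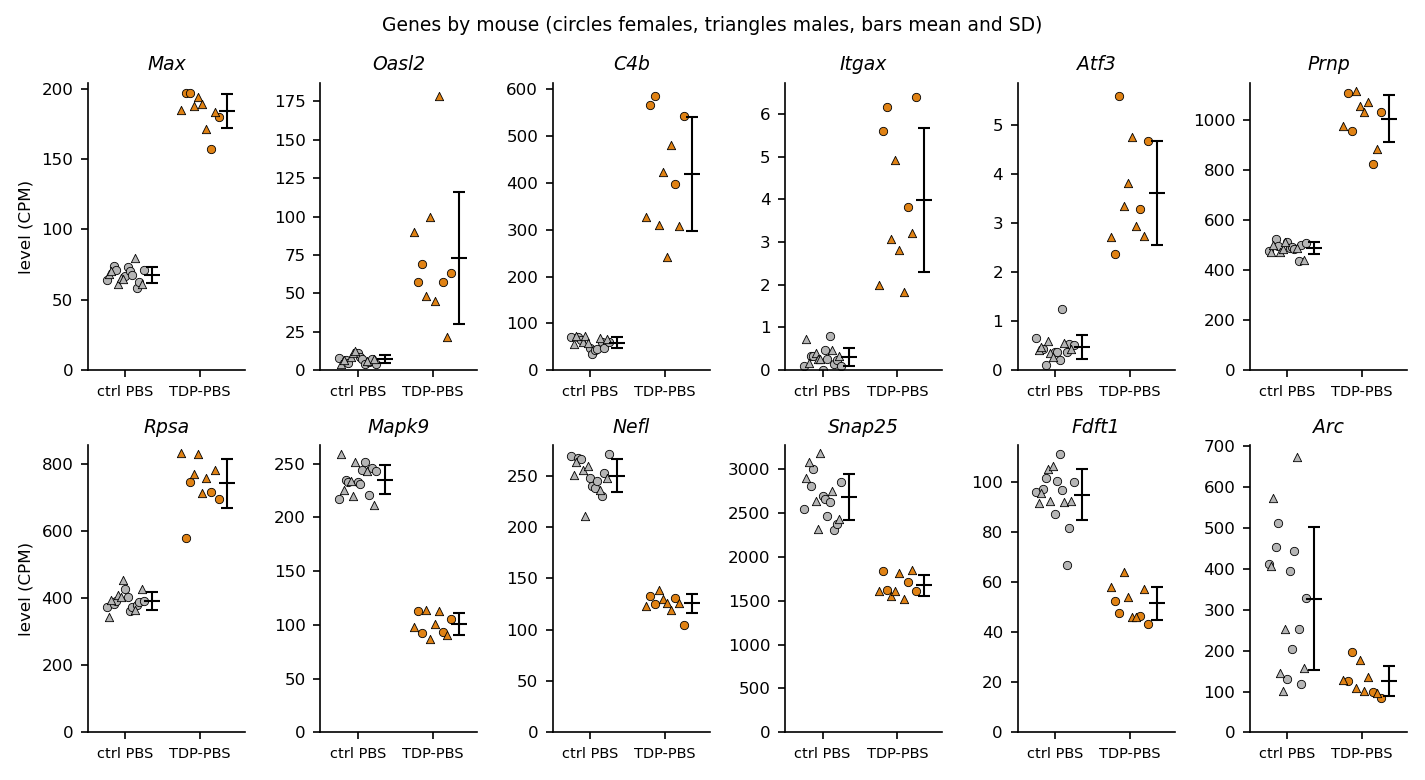
Levels of 12 genes in each mouse (CPM, linear axes from 0), with females as circles, males as triangles and bars for mean and SD (n = 17 and 10). In 11 of the 12 genes the groups do not overlap, whereas Arc varies widely among ctrl PBS mice and overlaps.

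Innate immune lists had the highest medians. The type I interferon response, in which infected or stressed cells signal through the transcription factor IRF9 to antiviral effector genes, was the list with the highest median. Of 40 genes of this kind tested, 39 rose and 0 fell, with a median log2 fold change of 2.06, and 27 had no overlap between groups. The sequences before the start sites of 3 of them, from RefSeq on GRCm38.p6, are printed because they hold the letters of the interferon-stimulated response element. The element was searched as GAAANNGAA on both strands of the 250 bases before to 50 bases after each start, and matches are in capitals within the 250 bases printed 5′ to 3′ in the direction of the gene.
Isg15 (chr4:156200819-156201068): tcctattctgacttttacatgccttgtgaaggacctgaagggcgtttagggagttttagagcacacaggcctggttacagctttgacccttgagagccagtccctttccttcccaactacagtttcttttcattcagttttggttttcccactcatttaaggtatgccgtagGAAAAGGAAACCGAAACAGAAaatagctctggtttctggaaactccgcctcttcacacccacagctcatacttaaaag
Ifit1 (chr19:34640639-34640888): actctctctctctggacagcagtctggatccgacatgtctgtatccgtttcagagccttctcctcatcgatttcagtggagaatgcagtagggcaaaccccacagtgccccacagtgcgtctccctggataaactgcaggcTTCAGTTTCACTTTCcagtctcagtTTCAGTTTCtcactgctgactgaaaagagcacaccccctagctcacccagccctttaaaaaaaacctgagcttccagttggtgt
Rsad2 (chr12:26456453-26456702): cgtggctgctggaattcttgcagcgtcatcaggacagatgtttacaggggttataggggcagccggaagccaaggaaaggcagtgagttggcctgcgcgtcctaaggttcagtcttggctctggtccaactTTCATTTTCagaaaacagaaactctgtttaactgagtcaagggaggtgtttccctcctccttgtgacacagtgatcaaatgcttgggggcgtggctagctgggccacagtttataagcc
Ifit1 lies on the plus strand, Isg15 and Rsad2 on the minus strand. The 3 matches of Isg15 overlap each other. Of the 40 interferon-stimulated genes, 29 had a promoter in the RefSeq table, and 16 of these (55.2%) held the element, against 2638 of 27025 genes in the table (9.76%). Among tested genes with a promoter the share was 8.74%. A match describes letters and not a bound site.

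Isg15, a ubiquitin-like antiviral modifier, lay from 0.207 to 1.30 CPM (median 0.567) in ctrl PBS and from 1.93 to 21.2 CPM (median 5.32) in TDP-PBS. Ifit1, which blocks translation of foreign RNA, lay from 1.71 to 5.25 CPM (median 2.56) in ctrl PBS and from 8.83 to 60.5 CPM (median 24.9) in TDP-PBS, and Rsad2, the antiviral enzyme viperin, from 0.150 to 1.84 CPM (median 0.816) in ctrl PBS and from 2.46 to 20.2 CPM (median 8.41) in TDP-PBS. In none of the 3 did the groups overlap, and in all 3 TDP-PBS mouse 7 was highest by a wide margin.

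The log2 fold changes of Isg15, Ifit1 and Rsad2 were 3.41 (standard error 0.35), 3.16 (0.26) and 3.09 (0.31), with adjusted p-values of 1.43e-11, 2.11e-14 and 7.77e-12 from edgeR. Oasl2, of the oligoadenylate synthetase family, rose from 7.30 ± 2.63 to 73.1 ± 43.1 CPM, and Usp18, which removes ISG15 from proteins and dampens interferon signalling, from 0.930 ± 0.382 to 9.88 ± 5.70 CPM. The regulators rose as well. Irf7, the transcription factor that amplifies interferon production, went from 4.66 ± 1.62 to 37.6 ± 15.9 CPM. Stat2, a partner of IRF9, rose 1.601-fold. The mean distance of the 40 genes from the ctrl PBS mean, taken over genes on a log2(CPM + 0.5) scale, ran from 0.85 in TDP-PBS mouse 9 to 2.55 in mouse 7. The highest ctrl PBS value was 0.38, in mouse 7 of that group, so all 10 TDP-PBS mice lay above it.

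Genes that answer mainly to interferon-γ, guanylate-binding proteins and immunity-related GTPases among them, rose in 13 of 18 with a median of 1.02. Gbp6 rose from 2.88 ± 1.59 to 17.9 ± 5.77 CPM, Gbp3 from 3.48 ± 1.42 to 14.8 ± 4.52 CPM and Irgm1, an autophagy-linked GTPase, from 17.5 ± 4.83 to 51.0 ± 13.7 CPM. The separation was weaker than for type I genes by count, with 3 of 18 without overlap, and ctrl PBS mouse 7 stood at 1.13 on the list mean, and 4 of 10 TDP-PBS mice lay above it. Without ctrl PBS mice 7 and 14, 15 rose.

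Antigen presentation by MHC class I followed. Of 18 genes of class I molecules, peptide transport and immunoproteasome, 13 rose and 1 fell, with a median of 1.07. B2m, the invariant light chain of class I molecules, lay from 50.6 to 124 CPM (median 81.6) in ctrl PBS and from 115 to 319.8 CPM (median 238) in TDP-PBS, and 9 of 10 TDP-PBS mice exceeded every ctrl PBS mouse. Psmb8, a catalytic subunit of the immunoproteasome, rose 3.51-fold and Tap1, a subunit of the peptide transporter, 3.10-fold. H2-K1 rose 3.30-fold, but reads can be shared with other near-identical H2 genes. Pdia3, an endoplasmic reticulum chaperone of class I assembly, was the member that fell, by 11.8%, a call lost with library totals. Of 8 class II genes 5 rose. Cd74, the invariant chain of class II, lay from 2.37 to 22.9 CPM (median 3.85) in ctrl PBS and from 5.51 to 28.4 CPM (median 11.5) in TDP-PBS, so the groups overlapped, with ctrl PBS mouse 13 holding the highest class II values of its group.

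Secreted inflammatory signals rose from very low levels. Of 17 of 24 chemokine and cytokine genes that could be tested, 14 rose and 2 fell, with a median log2 fold change of 1.82. The filter on low counts keeps a gene that is high enough in 1 group only and drops genes low in every group. The share that rose and the median therefore depend in part on the filter. With DESeq2 over all 24 genes 16 rose and 2 fell, with a median of 1.57. Ccl2, which attracts monocytes, lay from 0 to 0.312 CPM (median 0.104) in ctrl PBS and from 0.580 to 2.90 CPM (median 1.19) in TDP-PBS, and Ccl3, a macrophage inflammatory protein, from 0.0512 to 0.735 CPM (median 0.198) in ctrl PBS and from 1.16 to 3.22 CPM (median 1.75) in TDP-PBS. Neither overlapped, although the span of Ccl3 overlaps that of Ccl4 in the annotation and reads can be shared. Tnf was at 0 to 0.612 CPM in ctrl PBS and at 0 to 2.003 in TDP-PBS, with 6 of 10 mice above every ctrl PBS mouse.

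Several well-known mediators stayed too low to test. Il1b had 54 counts over the 17 ctrl PBS mice (mean 0.165 CPM) and 53 over the 10 TDP-PBS mice (mean 0.264 CPM). Il6 had 12 and 11 counts (0.0367 and 0.0562 CPM), and Cxcl1 22 and 25 (0.0671 and 0.125 CPM). Cx3cl1, the neuronal ligand of the microglial receptor CX3CR1, went the other way. It lay from 739 to 1077 CPM (median 938) in ctrl PBS and from 600.2 to 779 CPM (median 649) in TDP-PBS and fell by 28.3% (adjusted p = 1.76e-09 from edgeR).

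Microglia are the resident phagocytes of the brain, and in neurodegeneration a part of them takes on a disease-associated program of lipid handling, phagocytosis and TREM2 signalling. Of 30 genes of this program 26 rose and 2 fell, with a median of 0.92 and 16 without overlap. Itgax, the integrin CD11c, rose from 0.316 ± 0.211 to 3.98 ± 1.68 CPM and Clec7a, the receptor dectin-1, from 0.170 ± 0.132 to 2.59 ± 1.11 CPM. Trem2 itself lay from 14.3 to 22.9 CPM (median 17.6) in ctrl PBS and from 23.9 to 45.8 CPM (median 30.1) in TDP-PBS, with no overlap and a log2 fold change of 0.88. Apoe, expressed mainly by astrocytes in the healthy brain and by activated microglia, rose by 13.2%, from 940.1 ± 96.0 to 1064 ± 203 CPM, and lost its call in 5 of 21 alternative settings.

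Genes of homeostatic microglia did not fall as a group. Of 20, 11 rose and 1 fell, with a median of 0.29. This list also holds Trem2, described above with the disease-associated program, and Gpr84, both among its 4 largest changes. Their part in the list values was not tested. Tmem119 rose from 16.1 ± 1.17 to 22.02 ± 3.32 CPM, whereas P2ry12, the purinergic receptor of resting microglia, had 29.0 ± 2.46 CPM in ctrl PBS and 27.2 ± 3.69 CPM in TDP-PBS (log2 fold change −0.09, adjusted p = 0.206 from edgeR). The member that fell was Mef2c, by 23.5%, a transcription factor that cortical neurons also express. Mki67, a marker of dividing cells, rose 2.43-fold and Top2a, a topoisomerase of replicating cells, 2.25-fold, from 1.07 and 0.783 CPM. Of 18 cell cycle genes tested, 6 rose (33.3%) and 3 fell (16.7%), against 21.9% and 21.6% of all genes tested.

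Complement proteins tag synapses and debris for removal. In the complement list 14 of 17 rose and 0 fell, with a median of 1.01. The number that rose was 11 with voom and 12 to 14 with 1 TDP-PBS mouse left out. C4b, a component of the classical pathway (chromosome 17, 34728139 to 34743902), lay from 35.4 to 73.7 CPM (median 59.2) in ctrl PBS and from 241 to 586 CPM (median 410.4) in TDP-PBS. Its mean went from 58.7 ± 11.7 to 418 ± 122 CPM (log2 fold change 2.83, standard error 0.16, adjusted p = 3.72e-20 from edgeR), and no TDP-PBS mouse came within 3-fold of the highest ctrl PBS mouse's level. C1qa, a chain of the initiating complex, rose 2.01-fold and C3, the central component, 3.22-fold from 0.804 CPM.

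Of the Fc receptor genes 5 of 6 rose, among them Fcgr3 (1.67-fold) and the shared signalling chain Fcer1g (1.55-fold), both with overlap. Toll-like receptors and their NF-κB pathway rose in 19 of 23 with a median of 0.51. Tlr2, a receptor for lipoproteins, rose from 0.720 ± 0.310 to 3.02 ± 0.853 CPM, while Ikbkb, the kinase that activates NF-κB, fell by 12.0%, a call lost with library totals. In the lysosome, 19 of 24 genes rose, 11 of them without overlap. The protease gene Ctsd lay from 229 to 284 CPM (median 250.1) in ctrl PBS and from 407 to 606 CPM (median 473) in TDP-PBS, and Grn, the progranulin gene whose loss causes frontotemporal dementia, from 35.0 to 44.5 CPM (median 39.2) in ctrl PBS and from 59.3 to 89.1 CPM (median 70.5) in TDP-PBS. Psap, the precursor of saposins and a binding partner of progranulin, was the member that fell, by 13.5%. The palindromic E-box CACGTG was found in the promoters of 5 of 18 lysosomal genes with a promoter in the table (27.8%) and of 8.09% of all genes. Among tested genes with a promoter the share was 10.8%.

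Reactive astrocyte genes rose and homeostatic astrocyte genes mostly did not pass. Of 26 reactive genes 21 rose and 0 fell, with a median of 1.03, although this list also holds immune genes such as C3 and Cxcl10. Leaving out 1 TDP-PBS mouse at a time, 17 to 21 rose. Serpina3n, a secreted protease inhibitor, lay from 10.6 to 22.4 CPM (median 15.2) in ctrl PBS and from 33.3 to 97.8 CPM (median 56.4) in TDP-PBS, and Vim, the intermediate filament vimentin, from 25.2 to 38.0 CPM (median 29.2) in ctrl PBS and from 40.3 to 106 CPM (median 67.8) in TDP-PBS, both without overlap. Of 20 homeostatic genes 1 rose (5%) and 5 fell (25%), against 21.9% and 21.6% of all genes tested. With library totals 3 rose and 3 fell. Without TDP-PBS mouse 2 the number that fell was 3 and without mouse 4 it was 8. With voom 0 rose and 8 fell. Slc1a2, the main glutamate transporter, fell by 21.8% and Gja1, the gap junction protein connexin 43, by 18.4%.

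The other glial and vascular lists changed less, and their shares higher and lower were below those over all genes tested (21.9% and 21.6%). Myelin genes rose in 3 of 20 and fell in 2, and Mbp, the myelin basic protein gene, had 2612 ± 471 CPM in ctrl PBS and 2534 ± 362 CPM in TDP-PBS (adjusted p = 0.743 from edgeR). Apod, an apolipoprotein of oligodendrocytes and astrocytes, was an exception and rose 2.36-fold without overlap. Among 16 precursor genes 3 rose and 1 fell, and among 25 vascular genes 5 rose (3 without TDP-PBS mouse 3) and 3 fell. In the vessel list Icam1, an adhesion molecule for leukocytes that microglia also express, rose from 2.71 ± 0.466 to 7.34 ± 1.69 CPM without overlap. Kdr, the VEGF receptor of endothelium, fell by 20.7%, a call lost in 10 of 21 alternative settings.

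Lymphocyte markers were near the detection limit. Of 20 markers of T, NK and B cells 3 could be tested, with 1 higher and 1 lower. The defining T cell genes Cd3d, Cd3e and Cd3g had 2, 10 and 8 counts in all 10 TDP-PBS mice together. In all 17 ctrl PBS mice together they had 2, 26 and 5. Of 12 markers of blood-borne or border myeloid cells 7 were tested and 4 rose, a count that was 2 to 5 when 1 TDP-PBS mouse was left out, and lowest without mouse 3, 4 or 8. Blood and choroid plexus markers passed in 0 of 12 by edgeR and in 0 by DESeq2, with 1 gene, Ttr, at an unadjusted p under 0.05. With only the 27 PBS-treated mice in the edgeR fit, Ttr passed (adjusted p = 0.0303). Their mean distance from the ctrl PBS mean ranged from −1.36 in TDP-PBS mouse 10 to 1.498 in mouse 1, where the choroid plexus gene Ttr reached 1221 CPM.

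Markers of neighbouring brain regions and of pituitary were mostly low. Of 16, 5 fell and 1 rose, and without ctrl PBS mice 7 and 14 the numbers were 3 and 1. Omp and Eomes, markers of olfactory bulb, and Gh, growth hormone of the pituitary, were among those that fell, with 2, 0 and 0 TDP-PBS mice below every ctrl PBS mouse, and DESeq2 called 0 of the 3. The ctrl PBS mean of Gh rested on mice 5 and 6, at 44.8 and 19.8 CPM, and its call was lost in 9 of 20 alternative settings, with a positive log2 fold change of 0.66 under voom. Doc2g, another gene of olfactory bulb, fell by 68.0% and did not pass without ctrl PBS mice 7 and 14 (adjusted p = 0.292 from edgeR).

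**Figure D3:**
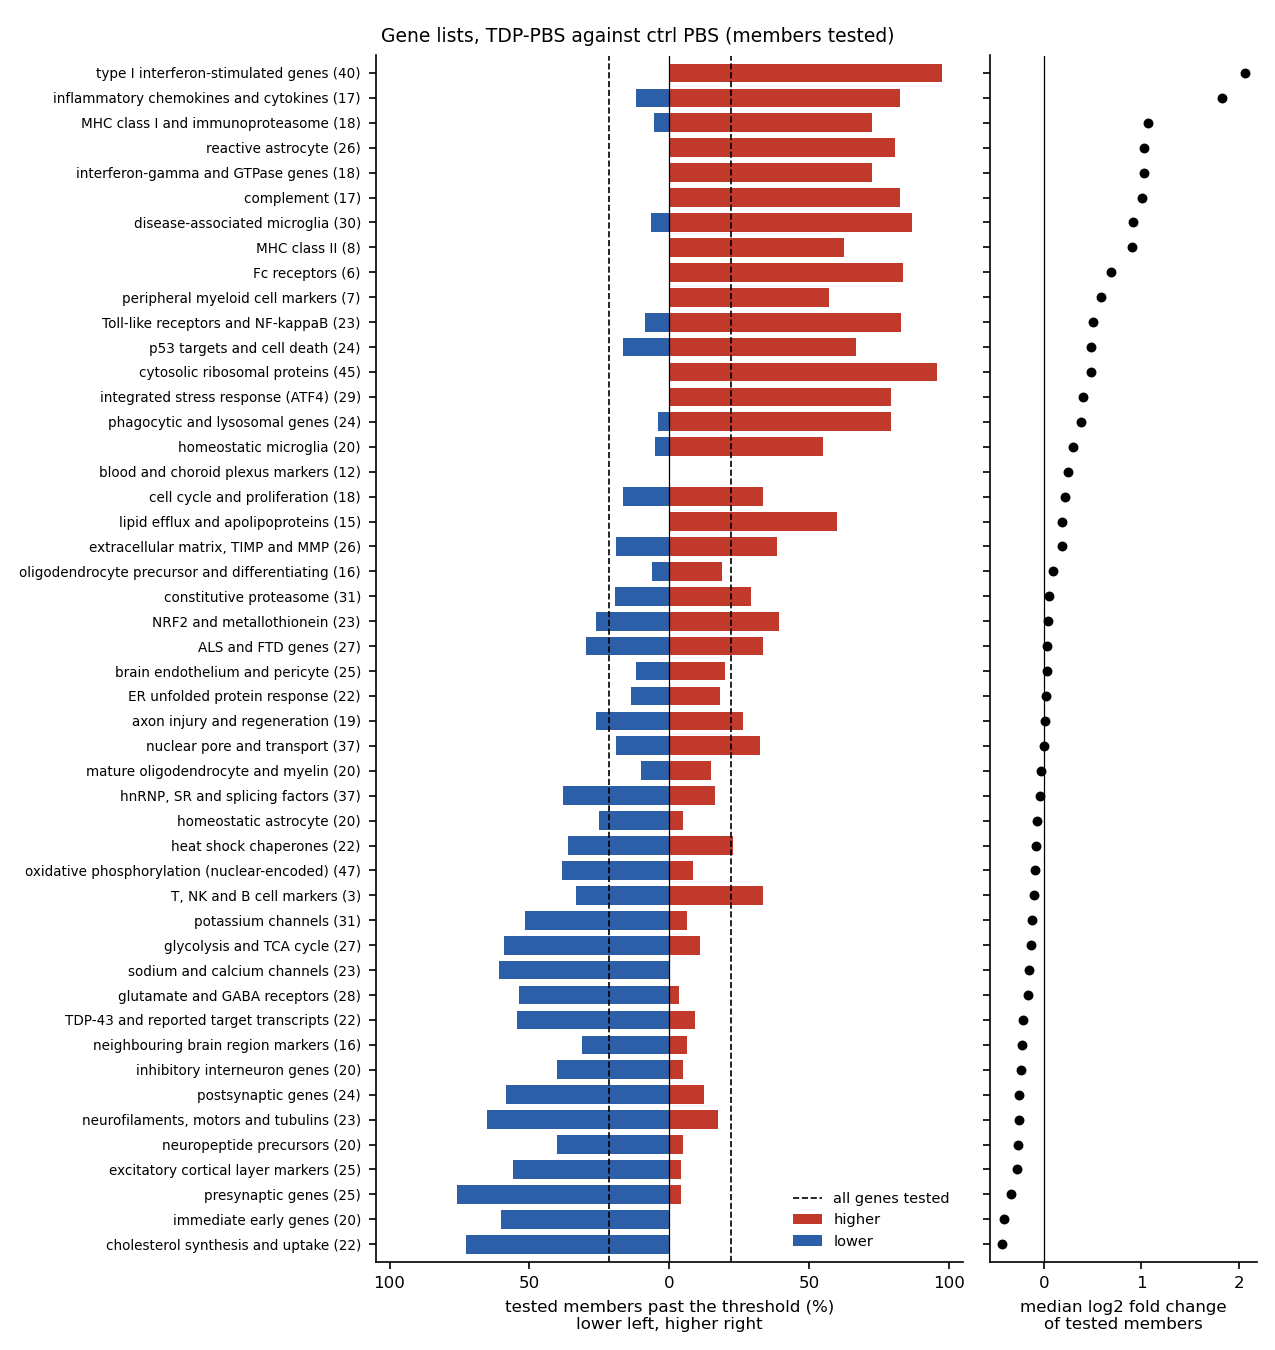
For each of 48 gene lists (number of tested members in brackets) the left panel gives the percentage of members higher (red) and lower (blue) in TDP-PBS, and the right panel the median log2 fold change. Dashed lines mark the shares over all genes tested (21.9% higher, 21.6% lower). The type I interferon and chemokine lists lie at the top, and cholesterol synthesis, immediate early and presynaptic lists at the bottom.

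Neuronal lists lay on the other side. Of 25 markers of excitatory cortical layers 14 fell and 1 rose, with a median of −0.28, and all 10 TDP-PBS mice lay below every ctrl PBS mouse on the list mean. The pan-excitatory transporter Slc17a7 was not among the genes that fell (log2 fold change −0.03, adjusted p = 0.716 from edgeR), whereas Slc17a6, a second vesicular glutamate transporter, fell by 43.6%. Lamp5, a marker of upper-layer and neurogliaform neurons, lay from 103 to 172 CPM (median 126) in ctrl PBS and from 32.2 to 63.5 CPM (median 42.7) in TDP-PBS and fell by 64.9%. Pcp4, a calmodulin-binding protein of deep layers, fell by 40.1% and Otof, the calcium sensor otoferlin of upper layers, by 35.0%. Ano3, a membrane protein gene of the anoctamin family, lay from 70.7 to 129.8 CPM (median 95.3) in ctrl PBS and from 20.6 to 36.6 CPM (median 25.9) in TDP-PBS, and fell by 71.7% without overlap.

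Inhibitory interneuron genes fell in 8 of 20 and rose in 1, with a median of −0.23. Without ctrl PBS mice 7 and 14 the counts were the same and the median was −0.17. The subclass markers parvalbumin (Pvalb, 29.4%), somatostatin (Sst, 16.05%) and vasoactive intestinal peptide (Vip, 27.9%) fell, as did the GABA-synthesizing enzyme Gad1 (24.6%), each with overlap between groups. Gad1 was highest in ctrl PBS mice 14 and 7 (453 and 386 CPM), the mice with Omp above 5 CPM. Their part in its fall was not tested. Neuropeptide precursors fell in 8 of 20. Npy lay from 100.1 to 166 CPM (median 124) in ctrl PBS and from 66.6 to 96.7 CPM (median 75.6) in TDP-PBS without overlap, and Cck fell by 34.2%.

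Immediate early genes, which neurons switch on within minutes of activity, fell in 12 of 20 and rose in 0, with a median of −0.41. The number that fell was 9 with library totals and 10 with DESeq2 or voom. These genes varied widely between mice. Arc, which encodes a regulator of AMPA receptor trafficking, lay from 101 to 674 CPM (median 329) in ctrl PBS and from 84.8 to 196 CPM (median 117) in TDP-PBS, and 3 of 10 TDP-PBS mice lay below every ctrl PBS mouse. Egr1 fell by 48.99%, Npas4 by 50.9% and Fos by 40.8%, the last with an adjusted p of 0.0465 from edgeR that was lost in 14 of 21 alternative settings. On the list mean no TDP-PBS mouse lay outside the ctrl PBS range, and TDP-PBS mouse 3 was at −0.01. The cyclic AMP response element TGACGTCA, a palindrome, was found in 2 of 16 promoters of the list (12.5%), against 2.03% of all genes. Among tested genes with a promoter the share was 3.17%.

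Presynaptic genes, which encode the machinery of transmitter release, had the largest share of members that fell of all 48 lists. Of 25 presynaptic genes 19 fell and 1 rose, with a median of −0.34 and 8 without overlap. With library totals 17 fell and 2 rose. The 3 SNARE proteins that fuse vesicles with the membrane fell together. Snap25 lay from 2308 to 3183 CPM (median 2653) in ctrl PBS and from 1513 to 1852 CPM (median 1619) in TDP-PBS. Stx1a, syntaxin 1A, lay from 241 to 379.7 CPM (median 304) in ctrl PBS and from 134 to 204 CPM (median 180.1) in TDP-PBS, and Vamp2, synaptobrevin 2, from 1538 to 2257 CPM (median 1858) in ctrl PBS and from 1073 to 1495 CPM (median 1206) in TDP-PBS. The groups did not overlap in any of the 3, which fell by 37.6%, 42.8% and 32.8%.

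On the postsynaptic side 14 of 24 genes fell and 3 rose. Calcineurin is the calcium-activated phosphatase of synapses. Its catalytic subunits Ppp3cb and Ppp3ca fell by 45.6% and 38.1% and its regulatory subunit Ppp3r1 by 43.3%, from 413 ± 30.4 to 234 ± 21.8 CPM, all without overlap. Camk2a, the abundant postsynaptic kinase, lay from 3641 to 5549 CPM (median 4591) in ctrl PBS and from 2326 to 3709 CPM (median 3242) in TDP-PBS and fell by 30.5%. Of 28 glutamate and GABA receptor genes 15 fell and 1 rose, or 11 and 3 with library totals, with the AMPA receptor subunit Gria3 down by 36.8%.

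Potassium channel genes fell in 16 of 31 and rose in 2, and sodium and calcium channel genes fell in 14 of 23 and rose in 0. With library totals the potassium list fell in 12 and rose in 3, and the sodium and calcium list fell in 7 and rose in 1. Kcnd2, the A-type channel of dendrites, fell by 36.5%, and Cacna2d1, an auxiliary subunit of presynaptic calcium channels, by 34.4%. Scn4b, an auxiliary sodium channel subunit, fell by 43.4%, with 2 of 10 mice below every ctrl PBS mouse.

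Neurofilament genes fell by unequal amounts. The light chain Nefl (chromosome 14, 68083863 to 68089095) lay from 211 to 271 CPM (median 250.4) in ctrl PBS and from 104.7 to 139 CPM (median 126) in TDP-PBS and fell by 49.8% (log2 fold change −0.99, standard error 0.06, adjusted p = 1.81e-19 from edgeR). The medium chain Nefm fell by 23.6%, whereas Ina, α-internexin, rose from 351 ± 33.7 to 469 ± 63.3 CPM. Over neurofilaments, motors and tubulins 15 of 23 fell and 4 rose. Tuba4a, a tubulin mutated in familial disease, fell by 31.9%, and Stmn1, a microtubule-destabilizing phosphoprotein, by 37.8%. The kinesin motor genes Kif5b and Kif5a rose 1.56-fold and 1.17-fold.

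Among 22 tested transcripts of TDP-43 and its reported targets 12 fell and 2 rose, with a median of −0.21. Stmn2, whose human transcript depends on TDP-43 for correct splicing, lay from 227 to 290.1 CPM (median 262) in ctrl PBS and from 177 to 216 CPM (median 200.1) in TDP-PBS, and Unc13a, a vesicle priming factor with a human cryptic exon, from 290.1 to 402 CPM (median 335) in ctrl PBS and from 171 to 283 CPM (median 244) in TDP-PBS. Both were without overlap and fell by 24.5% and 28.7%. Nptx2, a secreted pentraxin of excitatory synapses, fell by 52.7%. Gene-level counts hold no information on splicing. Genes mutated in amyotrophic lateral sclerosis or frontotemporal dementia were split, with 9 of 27 (33.3%) higher and 8 (29.6%) lower. Over all genes tested 21.9% were higher and 21.6% lower.

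Of 37 hnRNP, SR and other splicing factor genes 14 fell and 6 rose, but 8 and 8 with library totals. Nova1, a neuronal splicing regulator, fell by 35.99%, and Srsf5, an SR protein, rose 1.49-fold, both without overlap. Nuclear pore and transport genes rose in 12 of 37 (32.4%) and fell in 7 (18.9%), against 21.9% and 21.6% of all genes tested. Ran, the GTPase that gives transport its direction, lay from 76.4 to 91.3 CPM (median 83.5) in ctrl PBS and from 60.5 to 72.3 CPM (median 64.9) in TDP-PBS without overlap.

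A part of the stress response rose. The integrated stress response slows translation through phosphorylation of eIF2α and raises ATF4, which activates genes of amino acid supply and, under lasting stress, of cell death. Of 29 genes of this response 23 rose and 0 fell, with a median of 0.40. The C/EBP-ATF response element, searched as TGATGNAA on both strands, was found in the promoters of 9 of 25 members with a promoter in the table (36%) and of 1219 of 27025 genes (4.51%). Among tested genes with a promoter the share was 2.93%. The 250 bases before the start of 3 members that rose are printed with matches in capitals, from RefSeq on GRCm38.p6.
Atf3 (chr1:191183334-191183583): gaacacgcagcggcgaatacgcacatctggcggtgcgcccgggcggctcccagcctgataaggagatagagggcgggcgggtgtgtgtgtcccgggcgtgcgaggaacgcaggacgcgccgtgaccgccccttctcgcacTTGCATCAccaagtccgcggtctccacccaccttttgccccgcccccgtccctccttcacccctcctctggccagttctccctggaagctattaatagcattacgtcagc
Chac1 (chr2:119350992-119351241): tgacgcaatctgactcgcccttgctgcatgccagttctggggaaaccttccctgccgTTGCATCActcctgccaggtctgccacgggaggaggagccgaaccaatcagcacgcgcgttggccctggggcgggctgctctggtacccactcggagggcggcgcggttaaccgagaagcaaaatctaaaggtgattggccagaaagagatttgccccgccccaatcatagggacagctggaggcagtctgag
Nupr1 (chr7:126625471-126625720): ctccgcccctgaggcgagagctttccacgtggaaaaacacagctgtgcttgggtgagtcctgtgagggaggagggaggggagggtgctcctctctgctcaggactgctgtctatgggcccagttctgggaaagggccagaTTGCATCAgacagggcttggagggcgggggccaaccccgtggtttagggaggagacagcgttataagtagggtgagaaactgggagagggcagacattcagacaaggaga
Chac1 lies on the plus strand and the other two on the minus strand.

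Atf3, a transcription factor of injured neurons, lay from 0.108 to 1.25 CPM (median 0.430) in ctrl PBS and from 2.38 to 5.59 CPM (median 3.32) in TDP-PBS, with no overlap and a log2 fold change of 2.94 (standard error 0.23, adjusted p = 4.23e-15 from edgeR). Chac1, which degrades glutathione, lay from 3.80 to 6.84 CPM (median 4.90) in ctrl PBS and from 5.99 to 23.3 CPM (median 9.001) in TDP-PBS, and Nupr1, a stress-induced chromatin protein, from 3.67 to 7.004 CPM (median 5.16) in ctrl PBS and from 5.58 to 11.9 CPM (median 11.2) in TDP-PBS. For Chac1 a single animal, TDP-PBS mouse 4, was far above the rest, whereas Atf3 was spread evenly.

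Atf4 itself rose 1.71-fold and Ddit3, the pro-apoptotic factor CHOP, 1.75-fold, both without overlap. Stc2, a secreted glycoprotein, rose 2.75-fold and Trib3, an inhibitor of AKT, 2.10-fold from below 1 CPM. TDP-PBS mouse 4 had the highest list mean, 0.89, and the remaining 9 lay between 0.26 and 0.54. Leaving out each TDP-PBS mouse in turn, mouse 4 included, 22 to 23 of the 29 rose.

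The chaperone lists were mixed. The first of them lay below the shares over all genes tested, which were 21.9% higher and 21.6% lower. Of 22 genes of the unfolded protein response of the endoplasmic reticulum 4 rose (18.2%) and 3 fell (13.6%), or 9 and 1 with library totals. Without TDP-PBS mouse 4 the number that fell was 5. Hspa5, its main chaperone BiP, had 115 ± 27.5 CPM in ctrl PBS and 106 ± 24.4 CPM in TDP-PBS (adjusted p = 0.431 from edgeR), and Creld2 fell by 20.9%. Among heat shock chaperones 8 of 22 (36.4%) fell and 5 (22.7%) rose, or 7 and 7 with library totals. Hsph1, a nucleotide exchange factor of HSP70, lay from 126 to 202 CPM (median 153) in ctrl PBS and from 78.2 to 145 CPM (median 87.1) in TDP-PBS and fell by 42.0%, while the small heat shock protein gene Hspb1 rose 1.59-fold with an adjusted p of 0.0456 from edgeR, lost in 10 of 21 alternative settings. The palindrome GAANNTTC of the heat shock element was found in 11 of 17 promoters of the list (64.7%) and in 9.04% of all genes. Among tested genes with a promoter the share was 7.2%.

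Genes that p53 activates, with other cell death genes, rose in 16 of 24 and fell in 4 (1 without TDP-PBS mouse 1, 5 or 8), with a median of 0.49. Cdkn1a, the cell cycle inhibitor p21, lay from 23.1 to 52.7 CPM (median 29.5) in ctrl PBS and from 52.0 to 89.6 CPM (median 65.5) in TDP-PBS, and Eda2r, a receptor of the TNF receptor family, rose 4.71-fold from 0.207 CPM. Fas, the death receptor, rose 2.40-fold, but Gadd45a fell by 26.5%, a call lost in 12 of 21 alternative settings. The antioxidant list was mixed, with 9 of 23 higher (39.1%) and 6 lower (26.1%), against 21.9% and 21.6% of all genes tested. Hmox1, heme oxygenase 1, rose 1.79-fold with 9 of 10 mice above every ctrl PBS mouse. Axon injury genes, Atf3 included, were split into 5 higher and 5 lower of 19 (26.3% each), against 21.9% and 21.6% of all genes tested.

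**Figure D4:**
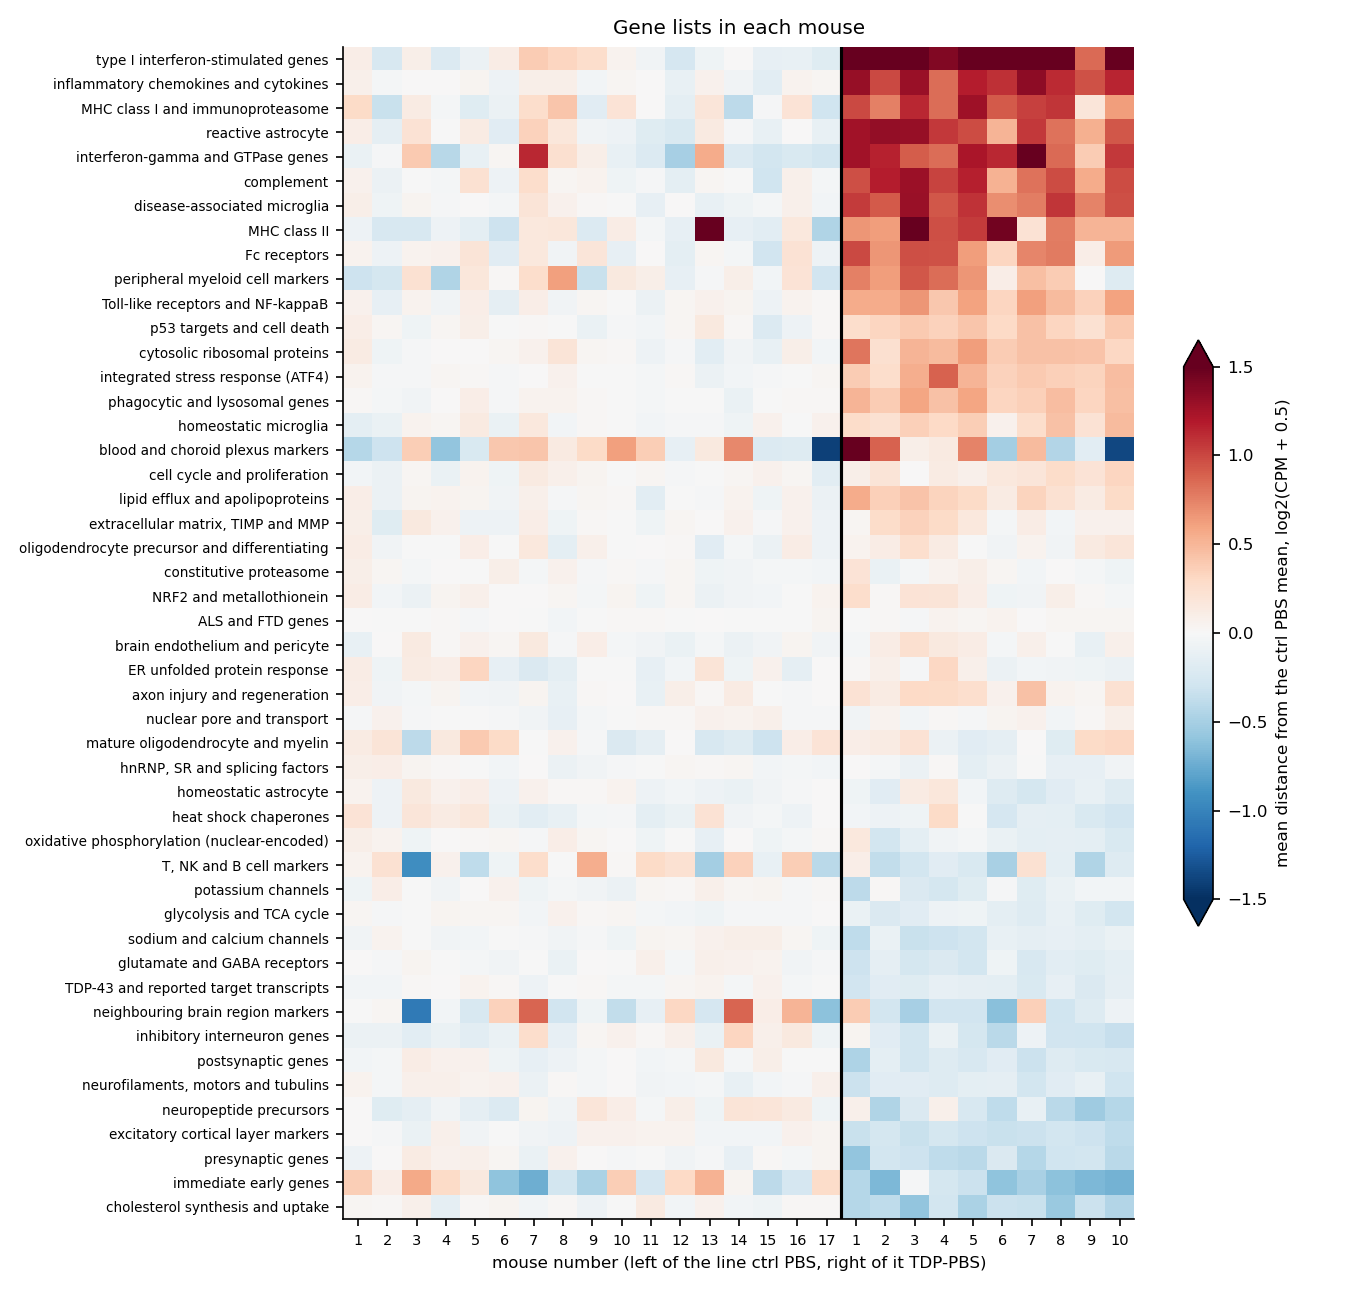
Each row is 1 of 48 gene lists and each column 1 mouse (17 ctrl PBS left of the line, 10 TDP-PBS right). Color gives the mean distance of the list's genes from the ctrl PBS mean on a log2(CPM + 0.5) scale, limited to ±1.5. TDP-PBS mouse 4 has the highest stress response mean (0.89) and mouse 7 the highest interferon mean (2.55), and ctrl PBS mouse 13 stands out in MHC class II (1.59).

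Genes of cytosolic ribosomal proteins rose almost without exception, by moderate amounts. Of 45 tested 43 rose and 0 fell, with a median log2 fold change of 0.48 and 19 without overlap. With library totals 43 rose, and leaving out each TDP-PBS mouse gave 43 to 43. Rpsa, a small-subunit protein also known as a laminin receptor (chromosome 9, 120127766 to 120132369), lay from 343 to 454 CPM (median 392.4) in ctrl PBS and from 581 to 832 CPM (median 753) in TDP-PBS. Rps2 rose 1.84-fold and Rplp1, a stalk protein, 1.65-fold. These genes have many processed pseudogenes with near-identical sequence, so their counts are uncertain. TDP-PBS mouse 1 had the highest list mean (0.81), mouse 2 the lowest (0.24), and the highest ctrl PBS mouse was at 0.19.

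Genes of energy metabolism were described in 2 lists. Nuclear-encoded genes of oxidative phosphorylation fell in 18 of 47 and rose in 4 (7 without TDP-PBS mouse 2), or 17 and 9 with library totals. In the first count 25 did not pass. The list median was −0.09, or −0.02 with library totals. On the list mean 6 TDP-PBS mice lay below every ctrl PBS mouse, whereas TDP-PBS mouse 1 lay above every ctrl PBS mouse. Atp5g3, a subunit of the ATP synthase ring, fell by 29.9%. Glycolysis and citric acid cycle genes fell in 16 of 27 and rose in 3, 7 of them without overlap. Pgk1, an ATP-yielding kinase of glycolysis, lay from 156 to 188 CPM (median 166) in ctrl PBS and from 102 to 126 CPM (median 108) in TDP-PBS, and Ldha, lactate dehydrogenase A, fell by 34.7%. Aldoa, the abundant brain and muscle aldolase, fell by 19.5%, also without overlap, whereas Hk2, a hexokinase that is low in neurons, rose 1.80-fold. Constitutive proteasome genes were split, 9 higher (29.0%) and 6 lower (19.4%) of 31, with Psmb4 down by 23.2%. Over all genes tested 21.9% were higher and 21.6% lower.

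Cholesterol synthesis had the lowest median of all 48 lists. SREBP2 switches on the enzymes of this pathway when cells run low on sterol. Of 22 genes 16 fell and 0 rose, with a median of −0.43 and 9 without overlap, and 15 fell with library totals. Hmgcs1, HMG-CoA synthase, lay from 103 to 145 CPM (median 125) in ctrl PBS and from 53.3 to 88.3 CPM (median 69.7) in TDP-PBS. Fdft1, squalene synthase (chromosome 14, 63145150 to 63181687), lay from 66.8 to 111 CPM (median 96.1) in ctrl PBS and from 43.3 to 64.0 CPM (median 50.2) in TDP-PBS, and Sqle, squalene epoxidase, from 34.9 to 42.9 CPM (median 38.3) in ctrl PBS and from 17.7 to 27.1 CPM (median 22.4) in TDP-PBS. In all 3 every TDP-PBS mouse lay below every ctrl PBS mouse.

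Srebf2, the SREBP2 gene, fell by 29.2%. Lipid efflux and apolipoprotein genes went the other way, with 9 of 15 higher and 0 lower. Abca1, the exporter of cholesterol to apolipoproteins, lay from 20.4 to 38.6 CPM (median 26.8) in ctrl PBS and from 36.7 to 65.4 CPM (median 46.0) in TDP-PBS, and 8 of 10 TDP-PBS mice exceeded every ctrl PBS mouse. Plin4, which coats lipid droplets, rose from 4.28 ± 2.02 to 29.2 ± 19.6 CPM, with TDP-PBS mice spread from 6.68 to 71.8 CPM.

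In the extracellular matrix 10 of 26 genes rose (38.5%) and 5 fell (19.2%), or 3 fell without TDP-PBS mouse 1. Over all genes tested 21.9% were higher and 21.6% lower. Timp1, the injury-induced inhibitor of metalloproteinases, rose 2.46-fold and Mmp12, a macrophage elastase, 5.38-fold, from 0.348 and 0.152 CPM. The call of Timp1 was lost in 3 of 20 alternative settings. Ncan, neurocan of perineuronal and perisynaptic matrix, fell without overlap and was lowest, at 129.8 CPM, in TDP-PBS mouse 1. Timp2 fell by 22.2%.

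Position and structure of the genes were compared with the direction of change as a description. Ordered by annotated span, the longest of 10 equal groups of tested genes (120983 bases and more) had 32.7% lower and 13.4% higher, against 16.5% lower and 20.4% higher in the shortest. Among genes with a mean CPM above the median, the longest group had 41.8% lower and 13.5% higher. The share of genes that fell also grew with level, from 5.16% in the lowest of 10 groups by mean CPM to 43.7% in the highest, while the share that rose went from 10.8% to 19.7% with a peak of 26.6% in between. Precision grows with level, and its part in these shares was not tested. Noncoding genes annotated as lncRNA were higher in 180 and lower in 323 of 1980, and protein-coding genes in 3555 and 3434 of 14932.

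**Figure D5:**
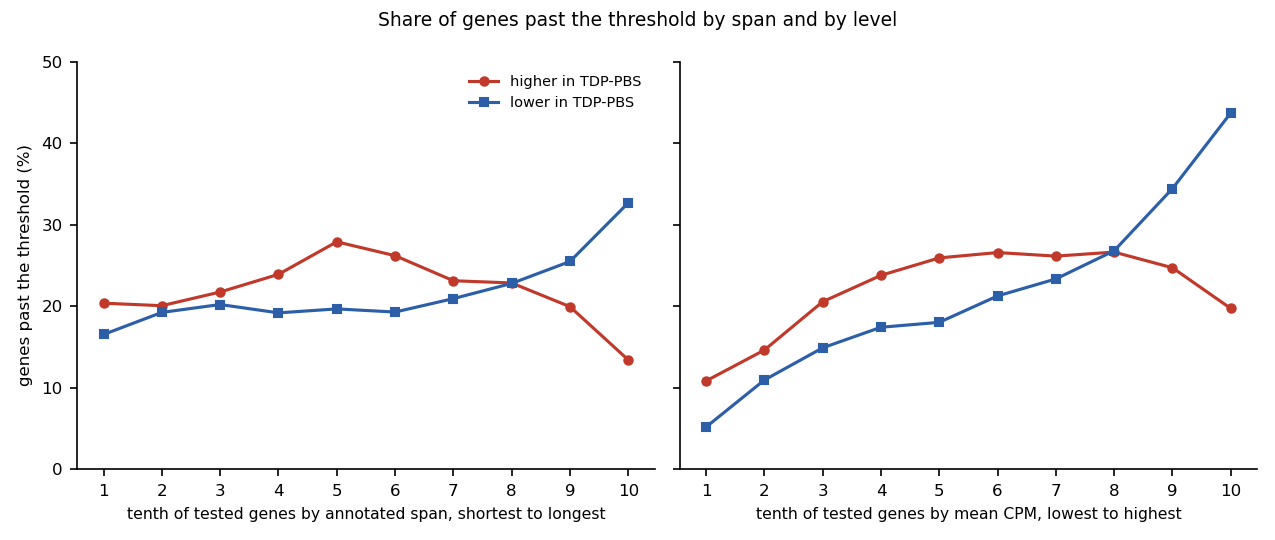
Percentage of tested genes higher (red) and lower (blue) in TDP-PBS, in 10 equal groups of the 18220 genes by annotated span (left, shortest to longest) and by mean CPM (right, lowest to highest). The share that fell reaches 32.7% in the longest genes and 43.7% in the most abundant.

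Females and males were compared last. In the 27 mice fitted with genotype by sex, 4999 of 18589 genes tested (26.9%) were changed in females and 5106 (27.5%) in males, and the 3326 changed in both had the same direction in each. The interaction itself passed for 0 genes (edgeR), with 1167 (6.28%) at an unadjusted p-value under 0.05, and for 0 with DESeq2, with 1413 unadjusted. The 3 smallest p-values belonged to Gm29797, A930005H10Rik and Fgr, a tyrosine kinase of myeloid cells. The values in each sex are given as a description. C4b had a log2 fold change of 3.27 (standard error 0.15) in females and 2.42 (0.15) in males, Itgax 4.27 (0.35) and 2.98 (0.37), and Cd74 2.12 (0.37) and 0.71 (0.36). For Cd74 the highest ctrl PBS value came from a male (mouse 13, 22.9 CPM) and the highest TDP-PBS value from a female (mouse 3, 28.4 CPM). The part of these mice in the values of each sex was not tested. Max, with 1.43 and 1.46, and Mapk9, with −1.22 and −1.22, were nearly the same in both.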

How the data were processed

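Neocortical RNA of 49 mice was sequenced by the authors, and the 27 that received PBS were compared here. The authors deposited whole-number counts per gene, which were used as they are. Per the labels the processing named HISAT, HISAT2, Bowtie, Bowtie2, RSEM and mm10, and the study's methods name GRCm38.p6. The counting strand and annotation version are not given in the sources used here. Total counts were 18346385 to 21033608 per mouse.

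Counts were tested with edgeR 4.0.16 in R 4.3.3 (quasi-likelihood test, TMM, filterByExpr, Benjamini-Hochberg over all genes), fitted on the 4 groups of all 49 mice to share the dispersion, with TDP-PBS against ctrl PBS as contrast. The code was tested on simulated counts. Groups came from the labels, and replicate numbers follow accession order. The comparison, the 48 lists and the tests were chosen with earlier results of these data known. Named genes were those tied to the transgene, the 10 highest and 10 lowest log2 fold changes from 5 CPM, the 10 smallest p-values per direction, and in each list the 4 largest changes, the one furthest against the majority and the most abundant. A further 20 tested genes and 6 genes too low to test were named for their role after their values were seen, and a few genes that the rule names are not reported here. Alternatives were other normalizations and filters, sex or 2 surrogate variables (sva 3.50.0) as covariates, the 27 mice alone, DESeq2 1.42.0, limma 3.58.1 (voom), and each TDP-PBS mouse left out. Library totals and the fit without 2 ctrl PBS mice were added after seeing the data. Promoters came from RefSeq. The 22 mice given peptide conjugate were described only through the shared dispersion.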

Additional observations from a re-analysis of the deposited data

Results flagged for a closer look

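In 23 of 155 genes examined, 1 TDP-PBS mouse stood apart from the other 9 by Dixon's gap ratio on CPM (over 0.466 for 10 values). For normally distributed values chance gives this level in about 1 in 20 groups. Whether CPM values were distributed so was not tested, so that rate may not hold here. The genes are not independent of each other, and the difference between mice was not tested further.

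TDP-PBS mouse 7 was highest in 8 of these, all of them interferon or chemokine genes. It had 178.3 CPM of Oasl2, 60.48 of Ifit1, 24.13 of Usp18, 23.01 of Bst2, 21.18 of Isg15, 20.16 of Rsad2, 4.496 of Mx1 and 2.901 of Ccl2. TDP-PBS mouse 4 was highest in 6, which encode stress response factors and chaperones. It had 357.3 CPM of Calr, 164.0 of Hspa5, 163.3 of Atf4, 145.5 of Hsph1, 23.32 of Chac1 and 2.471 of Stc2. TDP-PBS mouse 3 was highest for Vat1 (141.5 CPM), Fos (31.12 CPM) and Ccl3 (3.217 CPM).

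TDP-PBS mouse 1 was highest for Ttr, the choroid plexus transthyretin, at 1221 CPM against 179.2 CPM in the next mouse, and for Atp5g3 at 62.64 CPM, and lowest for Unc13a (171.4 CPM) and Ncan (129.8 CPM). Its part in the list values of blood and choroid plexus was not tested. Mouse 5 was highest for Tuba4a (524.8 CPM) and mouse 10 for the proliferation marker Mki67 (5.008 CPM).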

How the results depend on the processing

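Direction and significance were stable for most named genes. Of 5597 values of 269 genes under 21 alternative settings, 5415 kept direction and side of the threshold, 158 lost and 11 gained significance, and 13 changed sign. Among genes called both in an alternative and by edgeR with TMM, 0 had opposite signs. The number of changed genes ranged from 7313 under the strict filter (10 or more counts in each mouse) to 8196 under voom, and DESeq2 gave 8022. Genes over 1 log2 unit depended more on the treatment of low counts, with 1249 without a filter, 198 under the strict filter and 771 by DESeq2, against 491. Library totals in place of TMM moved the higher share of changed genes from 50.4% to 65.9%. Without ctrl PBS mice 7 and 14, 7791 genes were changed and 463 and 534 had groups without overlap. Leaving out each TDP-PBS mouse gave 7568 to 7933 changed genes, 492 to 530 over 1 log2 unit and 908 to 1021 without overlap, where fewer mice make separation easier. No paired analysis was possible because the replicate numbers only follow accession order and the labels used here give no litter.

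Signs changed mostly in genes that were near 0. With library totals the log2 fold changes of Calr, Mbp and Slc17a7 became 0.034, 0.022 and 0.032. With voom those of Gh and Slc17a7 became 0.66 and 0.0036. Without the 2 ctrl PBS mice that of Csrp1 became −0.0035. Leaving out 1 TDP-PBS mouse at a time, Calr ranged from −0.096 to 0.0050, Hba-a1 from −0.35 to 0.051, Slc17a7 from −0.062 to 0.012 and Csrp1 from −0.043 to 0.044. The cause was not tested.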

Other observations

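Several of the genes with the smallest p-values belonged to none of the 48 lists. Zfp866, a zinc finger gene, lay from 13.9 to 17.2 CPM (median 15.5) in ctrl PBS and from 25.7 to 35.1 CPM (median 30.5) in TDP-PBS, and Zfp180, another zinc finger gene, from 42.5 to 73.6 CPM (median 55.2) in ctrl PBS and from 115 to 141 CPM (median 133) in TDP-PBS. Neither overlapped between the groups.

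On the falling side Tmem30a, a subunit of phospholipid flippases that keep phosphatidylserine on the inner membrane leaflet, lay from 159 to 204 CPM (median 172) in ctrl PBS and from 82.9 to 109.9 CPM (median 99.4) in TDP-PBS. Septin8, a septin of the cytoskeleton found at synapses, fell from 288 ± 17.1 to 186 ± 9.59 CPM. All 10 TDP-PBS mice lay under the ctrl PBS range for both genes.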
